A study of Mus musculus with 61 samples.

Results

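Between the IgG2a and IgG1 viewpoints of the mouse immunoglobulin heavy chain locus (Igh) lies a stretch of 35 kb, and the bin pairs with an end in it are described here. They come from Tri-C, an assay in which crosslinked chromatin is cut and ligated, a probe enriches the fragments around a viewpoint, and reads holding that viewpoint with a pair of other fragments are kept. Each library gives 1 map of 27495 pairs of 1 kb bins, in which a value belongs to a pair of bins seen together with the viewpoint. The rule that chose the pairs uses bin positions and no measured value. The stretch is bins 96 to 130, and the 35 bins before it, 61 to 95, are called the IgG2a region. The boundary between them, 95 kb from the first bin, is called the edge, and positions are given as kb before or past it. All 630 pairs with both ends in the stretch are called pairs within the stretch. All 35 by 35 pairs with one end in the stretch and the other in the IgG2a region are called pairs across the edge. Together they are 6.75% of the bin pairs of a map. The positions went with the name. Libraries of the IgG2a capture were empty at a bin 10 kb before the edge, and those of the IgG1 capture at a bin 47 kb past it, beyond the far end of the stretch. The maps carry no genome coordinates, and a genome of their build, mm9, was not used here, so no sequence is given.

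The Igh constant genes stand in a row between a pair of enhancer regions, Emu near the variable gene segments and the regulatory region with hs4 beyond the last constant gene. In activated B cells, class switch recombination joins the switch region ahead of the first constant gene to that of another, and transcription through the chosen switch region and the enzyme AID are both needed. LPS with IL4 is known to steer mouse B cells to IgG1, and LPS alone to IgG3. A boundary in such a locus is a place across which contacts are rarer than within either side. An annotation of a later build, GRCm38.p6, lists the constant genes from the hs4 side as Igha, Ighe, Ighg2c, Ighg2b, Ighg1, Ighg3, Ighd and Ighm. Ighg2b, the constant gene of IgG2b, is thus between Ighg2c and Ighg1 there. Which bins hold it was not determined, and the IgG2a region is named by its probe.

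The 61 libraries were from mouse primary B cells, and the titles of the activation, TPL and LPS series name B18 AIDKO cells, AIDKO meaning that AID was knocked out. The activation series had LPS and IL4 in the medium and was sampled at 0, 48 and 72 h, with 2, 3 and 3 samples for each of the Emu, hs4 and IgG1 captures. For IgG1 each sample is the mean of 2 libraries, labelled clone 1 and clone 2. The Spt5 series compared cells labelled WT with cells activated for 62 h and treated with 4HT to deplete Spt5, a transcription elongation factor, for the last 32 h. Its titles do not name AIDKO, and how long its controls were activated is not in the labels. The IgG1 capture had 4 libraries of controls and 5 of depleted cells over 2 clones, and IgG2a had 2 and 3. The TPL series used the Emu capture on cells after 72 h of activation, with 3 libraries each for no TPL, TPL for 1 h and TPL for 3 h. TPL is not spelled out in the labels. The LPS series used the IgG3 capture, with 3 libraries of day 0 and 3 of day 3. Its titles name LPS, while the shared growth label names LPS and IL4. One resting library of each capture and clone has a title that joins replicates 1 and 3. Labels and titles do not say whether replicates were separate mice or cultures, so p-values measure the spread between these samples, which may be technical. Contact maps hold no expression values, so the cell type was not checked against markers.

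Every map sums to 300000, so a value is a share of its map and says nothing of absolute contact number. Whole contacts recovered from the values, used for depth, ran from 5996 to 89790 per library with a median of 20755. The pairs described here held 365 to 13780 of them per library, and the pairs across the edge 16 to 1044. The shallowest library was one without TPL, and the 3 of that group held 5996 to 7503 contacts. Low values of a bin paired with itself did not enter the recovery and served as its check. They came out whole in 63.5% to 100% of cases per library, over 90% in 51 of 61 libraries. The lowest was a library without TPL. The bins 18, 19 and 21 kb past the edge were empty in all 61 libraries. The bin 6 kb past the edge was empty in 47 of 47 libraries of the other series and in 1 of 14 of the Spt5 series. Its part in any difference between series was not tested, and no test below sets these series against each other.

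Pairs within the stretch held more of the map than their number. They were 2.29% of bin pairs and held from 3.39% to 21.4% of the map per sample, above their number in 61 of 61 libraries. Pairs across the edge were 4.46% of bin pairs and held 0.244% to 4.75%, below their number in 58 of 61 libraries. Neither trait was particular to this place. Each of 5 regions of 35 kb, the stretch among them, held more than 2.29% within it in all 18 groups, and the stretch ranked from 2 to 4. Among the 4 borders between these regions, the edge held the least in 2 of 18 groups. It was set by bin positions and is not a measured boundary. Much of the value within the stretch lay close to the diagonal. A bin paired with itself took a median of 50.9% of it over libraries, bins 1 to 4 kb apart 37.8%, and bins 15 to 34 kb apart 5.1%. In the libraries of the IgG1 capture the lowest and highest shares of bins paired with themselves were 39.7% and 64.5%. Of the value across the edge, a median of 7.76% came from bins under 10 kb apart.

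The 3 bins with the most ends, taken over all libraries of a capture in all series, differed between captures. From Emu they were 17, 23 and 3 kb past the edge, from hs4 27, 17 and 1 kb past it, and from IgG1 33, 3 and 17 kb past it. From IgG2a they were the 3 bins next to the edge, 2, 1 and 0 kb past it, with 7.39 ± 2.67%, 7.08 ± 1.84% and 6.81 ± 2.01% of the ends (SD, n = 5 libraries). From IgG3 they were 3, 2 and 1 kb past it. The titles of the IgG1 libraries name an IgG1 capture in the activation series and an IgG1 pool capture in the Spt5 series, and the labels do not say whether the probes were the same. The bin 17 kb past the edge held 4.23 ± 1.12% of the ends from IgG1 (SD, n = 25 libraries of both series) and 4.37 ± 1.26% from hs4 (n = 8). From Emu it ranged from 1.02% to 23.1% over 17 libraries.

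**Figure D1:**
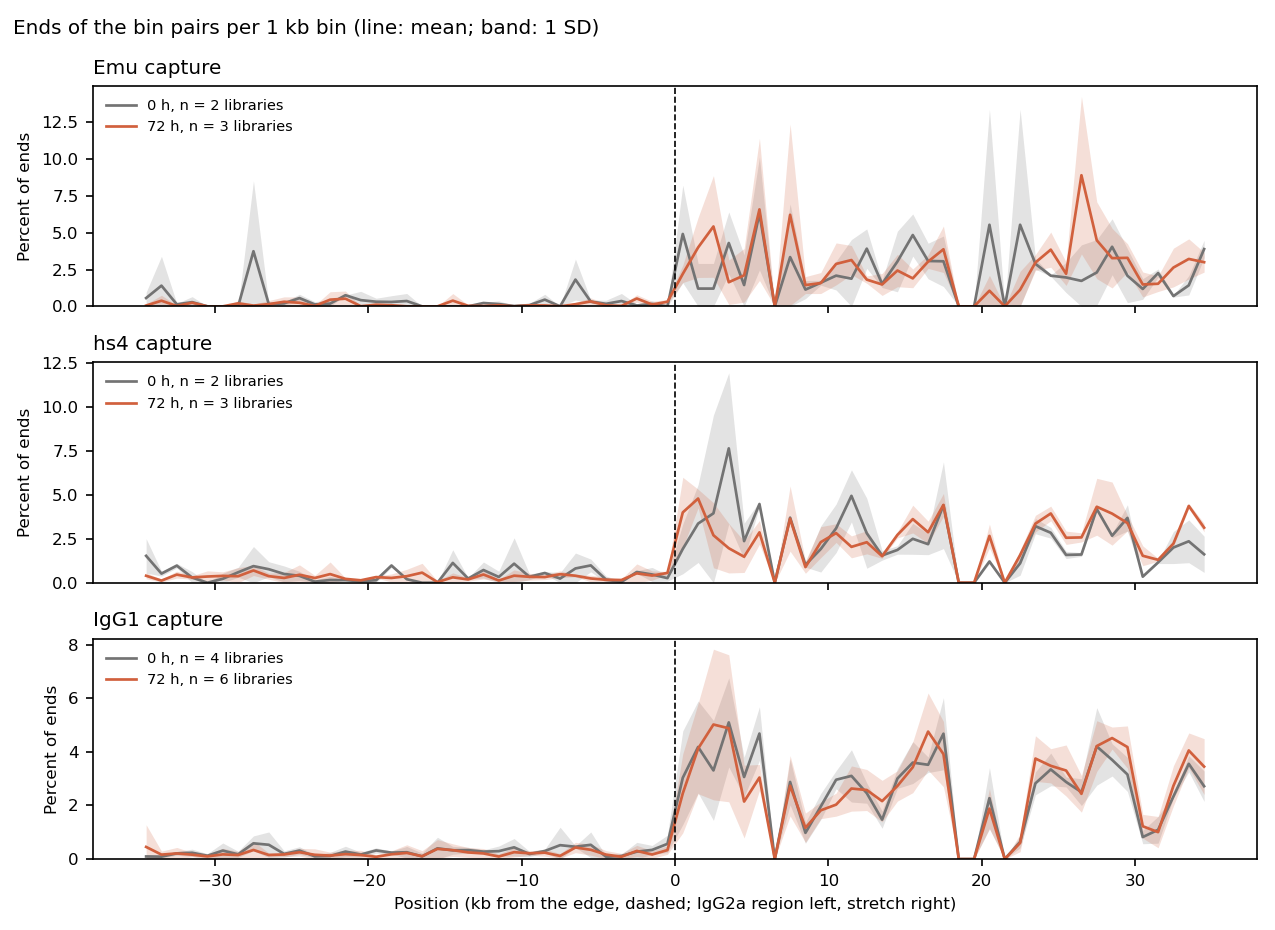
Share of the ends of the bin pairs in each 1 kb bin (percent, vertical axis) against position (kb from the edge), for the Emu, hs4 and IgG1 captures at 0 h (grey) and 72 h (orange). Lines are means over libraries and bands are 1 SD. The ends lay mostly to the right of the dashed edge, and the empty bins 18, 19 and 21 kb past it stand at 0.

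In resting cells the stretch was seen most from IgG1. Values within it at 0 h were 11.5% and 12.5% from IgG1, 8.41% and 6.46% from Emu, and 3.39% and 6.29% from hs4 (n = 2 each). The samples of the IgG1 capture were higher than those of the other captures, and no sample of Emu was lower than a sample of hs4. In limma fits over the 3 captures, the log2 difference within the stretch was 0.70 (SE 0.22, adjusted p = 0.0136) between IgG1 and Emu, 1.37 (SE 0.22, adjusted p = 2.64e-05) between IgG1 and hs4, and 0.67 (SE 0.22, adjusted p = 0.0177) between Emu and hs4. Of the 28 pairs of regions tested, 42.9%, 53.6% and 50% were called in these contrasts, so a call was common. Across the edge, the means were 2.96 ± 0.35% from IgG1, 2.86 ± 1.498% from Emu and 2.23 ± 0.27% from hs4 (SD, n = 2 each), and limma called none of the 3 contrasts, with log2 differences of 0.15, 0.41 and 0.26 (SE 0.34 each). The call between IgG1 and Emu turned to -0.03 when pairs 0 or 1 kb apart were left out (limma adjusted p = 0.922). It was lost too without replicate 2 of Emu or of IgG1 at 0 h (log2 0.51 and 0.64). That between Emu and hs4 was lost without replicate 1 of either (log2 0.48 and 0.23).

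**Figure D2:**
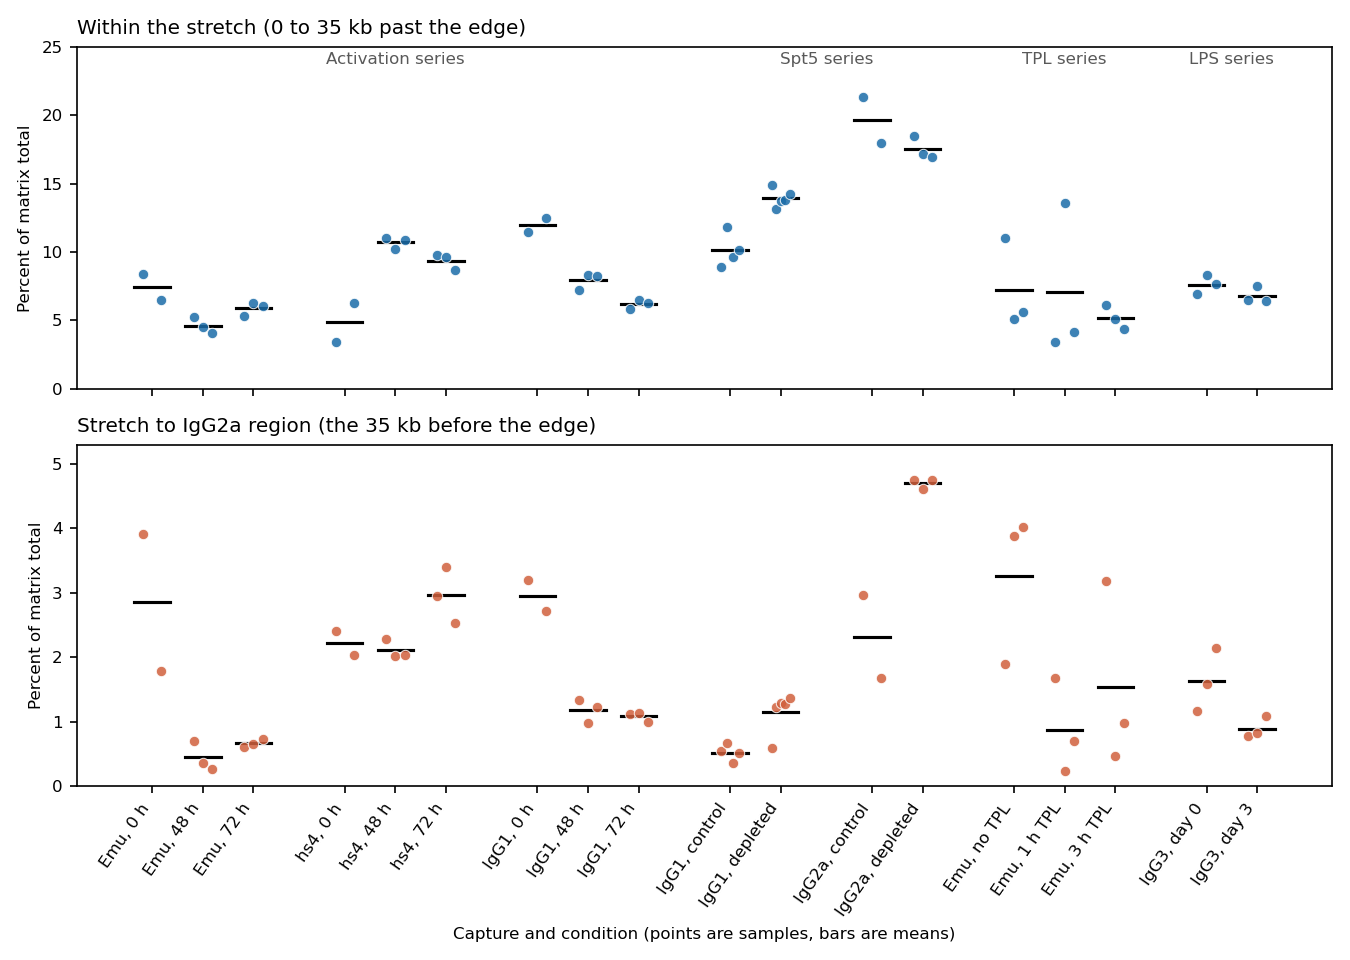
Percent of the map total within the stretch (top) and across the edge (bottom) for each sample (points) with the group mean (bar), by capture and condition. In the activation series, activated samples of the Emu and IgG1 captures lay below those at 0 h in both classes. Activated samples of hs4 lay above those at 0 h within the stretch. Emu libraries without TPL, also from 72 h of activation, overlapped those at 0 h in both classes. At 72 h the changes within the stretch from Emu and hs4 did not pass the test. For IgG1 in the activation series a point is the mean of 2 clones.

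In the view from IgG1, both classes held a smaller share of the map in activated samples than at 0 h. Within the stretch, values were 11.5% and 12.5% at 0 h, 7.21%, 8.33% and 8.24% at 48 h, and 5.84%, 6.50% and 6.27% at 72 h. The resting samples lay above all activated ones. The change against 0 h was -0.60 on the log2 scale of the value plus 50 at 48 h (SE 0.10, limma adjusted p = 0.00151) and -0.95 at 72 h (SE 0.10, limma adjusted p = 0.000158). Across the edge, values were 3.20% and 2.71% at 0 h, 1.33%, 0.981% and 1.23% at 48 h, and 1.13%, 1.13% and 0.998% at 72 h. These groups did not overlap either. The log2 changes were -1.32 (SE 0.15, limma adjusted p = 0.000233) and -1.43 (SE 0.15, limma adjusted p = 0.00015). Both times share the samples at 0 h. Exact two-sided permutation gave p = 0.1 for both classes at both times, the smallest possible with so few samples. Adjusted over 15 comparisons, exact permutation p was 0.15 within the stretch and 0.167 across the edge.

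Many region pairs moved in this capture, with 60.7% of the 28 called at 48 h (25% higher and 35.7% lower) and 57.1% at 72 h (28.6% each way). In clone 1 alone the changes at 72 h were -1.02 within the stretch and -1.23 to the IgG2a region, and in clone 2 alone -0.88 and -1.72, each called by limma (adjusted p from 0.000379 to 0.00228). Pairs joining the stretch to its other neighbour, the next 35 kb on the IgG1 side, were lower as well, from 5.12 ± 0.24% (SD, n = 2) to 2.09 ± 0.13% (n = 3) at 72 h (log2 -1.29, SE 0.22, limma adjusted p = 0.0015). The balance between the sides, the log2 ratio of the value toward IgG2a to that toward IgG1, was -0.80 ± 0.24 at 0 h and -0.95 ± 0.17 at 72 h, and an exact two-sided permutation test gave p = 0.5. Scaling by the median of ratios moved the changes by 0.41 at 48 h and 0.31 at 72 h, and the call within the stretch at 48 h ended (log2 -0.19, limma adjusted p = 0.361).

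**Figure D3:**
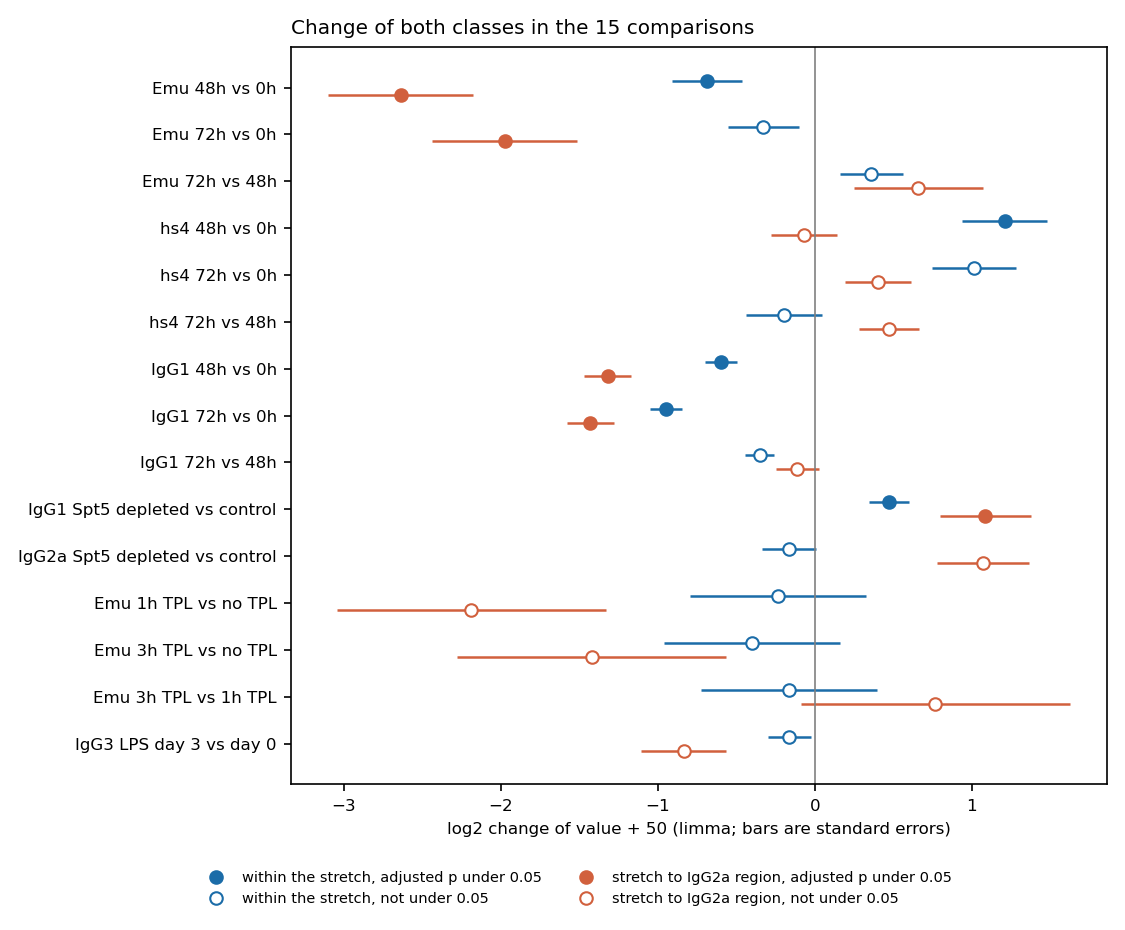
Log2 change of the value plus 50 (horizontal axis, bars are standard errors) for pairs within the stretch (blue) and across the edge (orange) in the 15 comparisons. Filled points had a limma adjusted p under 0.05. Both classes were lower in activated cells from IgG1 and higher after Spt5 depletion from IgG1, and from hs4 the filled point is the rise within the stretch at 48 h.

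At the deposited scaling, the changes seen from IgG1 were negative over the whole block of pairs that passed the filter. With bins joined into blocks of 7 kb there are 40 pairs of blocks, of which 39 passed the filter on low values. All 39 had a negative change at 48 h and at 72 h. The median change was -0.96 and -0.97, beside -0.33 and -0.19 over the 376 block pairs tested. Limma called 17 lower at 48 h (9 within the stretch and 8 across the edge) and 21 lower at 72 h (11 and 10), where 33.2% and 36.4% of all block pairs were called in either direction with 13% and 16.8% higher and 20.2% and 19.7% lower. Blocks 21-14 kb before and 7-14 kb past the edge held 0.0984% and 0.209% at 0 h and 0.0346%, 0.00563% and 0.00355% at 48 h (log2 -2.50, SE 0.56, limma adjusted p = 0.00592). Means of that pair at 48 and 72 h, 0.0146% and 0.0232%, were below the filter, so it passed through its resting samples. At 72 h the blocks 14-7 kb before and 0-7 kb past the edge changed most. They held 0.467% and 0.108% at 0 h and 0.0627%, 0.0307% and 0.00823% at 72 h (log2 -2.44, SE 0.56, limma adjusted p = 0.0044). These 2 resting samples differ more than 4-fold from each other.

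Other named block pairs of the IgG1 capture all crossed the edge. Blocks 28-21 kb before and 28-35 kb past the edge held 0.166% in each resting sample and 0.0199%, 0.0375% and 0.0315% at 72 h (log2 -1.999, SE 0.37, limma adjusted p = 0.00107). Blocks 7-0 kb before and 21-28 kb past the edge changed by -1.78 at 48 h (SE 0.60, limma adjusted p = 0.0361), and those 14-7 kb before and 0-7 kb past the edge by -1.66 (SE 0.56, limma adjusted p = 0.0348). The first of these had a mean of 0.0116% at 48 h, below the filter. Blocks 21-14 kb before and 7-14 kb past the edge changed by -2.11 at 72 h (SE 0.56, limma adjusted p = 0.00933). The number called at 48 h depended on the processing, at 3 under median of ratios scaling, 2 with pairs 0 or 1 kb apart left out, 7 and 3 in clone 1 and clone 2 alone, and 27 on recovered contacts. At 72 h it was 16, 14, 14 and 12, and 26. It also depended on single samples. Without replicate 1 at 0 h, 2 were called at 48 h and 10 at 72 h. Without replicate 2 at 0 h, 9 were called at 48 h, and without replicate 2 or 3 at 48 h, 5 and 8.

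**Figure D4:**
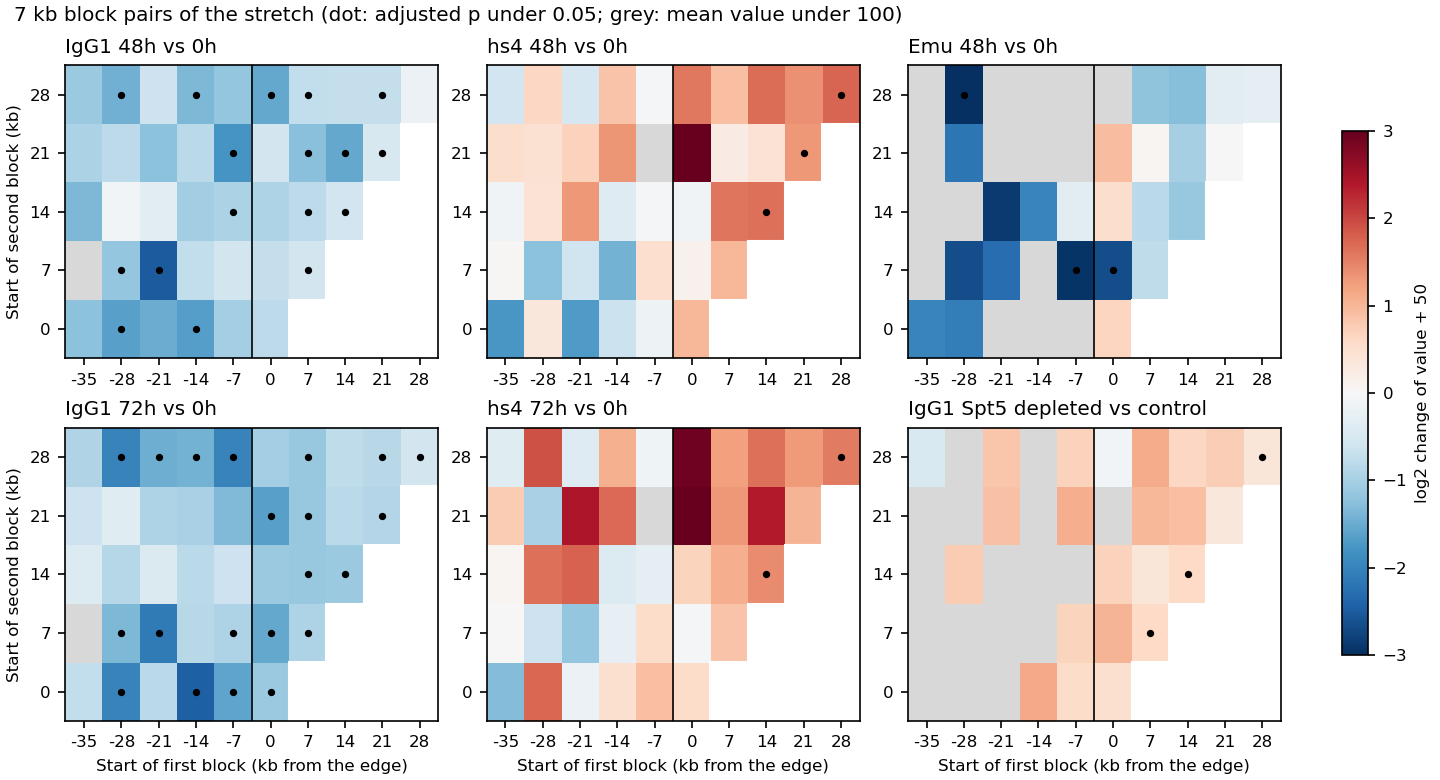
Log2 change of the value plus 50 (colour) for pairs of 7 kb blocks with one end in the stretch, by the start of the first block (horizontal, kb from the edge) and of the second (vertical). The black line is the edge, dots mark a limma adjusted p under 0.05, grey squares did not pass the filter, and white squares are no pairs of the set. The panels of IgG1 at 48 and 72 h are below 0 in all 39 squares shown, and the dots of hs4 lie on the diagonal within the stretch.

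In the activation series, seen from Emu, the enhancer at the far end, pairs across the edge became scarce. They held 3.91% and 1.80% at 0 h, 0.709%, 0.361% and 0.273% at 48 h, and 0.603%, 0.663% and 0.727% at 72 h. The resting libraries were above all activated ones of this series. They differed more from each other than the lower of them did from the activated ones. Emu libraries without TPL, a separate series also from 72 h of activation, held 1.89%, 3.89% and 4.02%, and the difference between series was not tested. The log2 change was -2.64 at 48 h (SE 0.46, limma adjusted p = 0.0165) and -1.97 at 72 h (SE 0.46, limma adjusted p = 0.0447), with 35.7% and 21.4% of the 28 region pairs called (3.57% and 7.14% higher, 32.1% and 14.3% lower). Within the stretch, values were 8.41% and 6.46% at 0 h, 5.24%, 4.48% and 4.07% at 48 h, and 5.33%, 6.29% and 6.05% at 72 h. That passed at 48 h (log2 -0.69, SE 0.22, limma adjusted p = 0.0485) and not at 72 h (log2 -0.33, SE 0.22, limma adjusted p = 0.291), although no values overlapped at either time. By exact two-sided permutation p was 0.1 for both classes at both times, the smallest possible with so few samples. Adjusted over 15 comparisons, exact permutation p was 0.15 within the stretch and 0.167 across the edge.

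The Emu values rest on few contacts. In the resting libraries, the value across the edge lay in 24 and 39 bin pairs, and a single bin pair held 44.9% and 19.99% of the value. Without replicate 1 at 0 h the change across the edge was -2.08 at 48 h and -1.42 at 72 h, and limma no longer called it (adjusted p = 0.118 and 0.155). The call at 48 h further needed replicates 2 and 3 at 48 h (log2 -2.54 and -2.35 when either was left out), and that at 72 h was lost without replicate 1, 2 or 3 at 72 h (log2 -1.91, -1.97 and -2.04). The call within the stretch at 48 h was lost when replicate 1 or 2 of the resting libraries was left out (log2 -0.50 and -0.88), or replicate 2 or 3 of those at 48 h (log2 -0.67 and -0.60). On recovered contacts it was -0.16 (limma adjusted p = 0.661), and the change at 72 h turned to 0.10.

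Of the 24 Emu block pairs that passed the filter, 3 were called lower at 48 h and 0 at 72 h, where limma called 8.17% and 5.45% of all 257 (4.67% and 4.28% higher, 3.5% and 1.17% lower) and the count of members at an unadjusted p under 0.05 was 6 and 3. Blocks 28-21 kb before and 28-35 kb past the edge held 0.135% and 0.210% at 0 h and were at 0 in the 3 libraries at 48 h (limma adjusted p = 0.0413). That pair was thus below the filter at 48 h and passed through the other times. Blocks 7-0 kb before and 7-14 kb past the edge held 0.268% and 0.447% at 0 h and 0.0708%, 0.0297% and 0.00904% at 48 h (log2 -2.95, SE 0.92, limma adjusted p = 0.0413). Within the stretch, blocks 0-7 kb and 7-14 kb past the edge held 0.244% and 0.718%, then 0.0272%, 0.0321% and 0.136% (log2 -2.67, SE 0.78, limma adjusted p = 0.0334). With any 1 of the 5 libraries left out, 0 or 1 of the member block pairs were called at 48 h.

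From hs4, on the other side of the locus, the stretch changed the other way. Within it, values were 3.39% and 6.29% at 0 h, 11.05%, 10.2% and 10.9% at 48 h, and 9.77%, 9.65% and 8.66% at 72 h. All activated libraries were above both resting ones. The rise passed at 48 h (log2 1.21, SE 0.27, limma adjusted p = 0.0224) and not at 72 h (log2 1.0137, SE 0.27, limma adjusted p = 0.0646), with 10.7% (7.14% higher and 3.57% lower) and 0% of the 28 region pairs called. Pairs across the edge held 2.42% and 2.04% at 0 h, 2.28%, 2.02% and 2.04% at 48 h, and 2.95%, 3.402% and 2.53% at 72 h. Their log2 changes were -0.07 (SE 0.21, limma adjusted p = 0.884) and 0.40 (SE 0.21, limma adjusted p = 0.194). Within the stretch, exact two-sided permutation gave p = 0.1 at both times, the smallest possible with so few samples (adjusted over 15 comparisons, 0.15). Across the edge it gave 0.6 and 0.2.

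The block pairs called as higher lay on the diagonal of the part of the stretch toward IgG1, while positive changes were found off it too. Of 39 hs4 block pairs that passed the filter, 3 were called higher at 48 h and 2 at 72 h, where 2.44% and 1.63% of all 369 were called (1.08% and 1.63% higher). Pairs within the block 28-35 kb past the edge held 0.368% and 0.807% at 0 h, 1.496%, 2.16% and 2.00% at 48 h, and 1.88%, 1.77% and 1.36% at 72 h (log2 1.74 and 1.57, SE 0.33, limma adjusted p = 0.0035 and 0.0136). Pairs within 14-21 kb past the edge held 0.4497% and 0.546%, then 1.298%, 1.57% and 1.99%, then 1.54%, 1.38% and 1.17% (log2 1.65 and 1.42, SE 0.30, limma adjusted p = 0.00326 and 0.0136). Pairs within 21-28 kb past the edge were called at 48 h, at 0.707% and 0.736% against 2.11%, 1.62% and 1.72% (log2 1.3045, SE 0.27, limma adjusted p = 0.0076). Resting and activated libraries did not overlap in these 3. Of the 15 block pairs within the stretch, 14 had a positive change at each time, and of the 24 across the edge 11 and 12. The median change at 48 and 72 h was 1.3045 and 1.281 within the stretch, and -0.0553 and 0.0248 across the edge. Over all 369 block pairs tested it was -0.1477 and -0.0672, and the difference was not tested. Block pairs of a map share its libraries and its fixed sum, so these signs are not independent of each other.

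Single libraries also decided the hs4 calls. The rise within the stretch at 48 h was 0.77 without replicate 1 at 0 h (limma adjusted p = 0.0867), and it was not called either without replicate 1 or 3 at 48 h (log2 1.19 and 1.197). At 72 h it was 1.46 without replicate 2 at 0 h (limma adjusted p = 0.00858), a fit that keeps the lower of the 2 resting libraries alone and takes its spread from the activated ones. It was also called with pairs 0 or 1 kb apart left out (log2 1.15, limma adjusted p = 0.0309) and under median of ratios scaling (log2 1.09, limma adjusted p = 0.0413), which moved the 48 h changes by 0.20 and the 72 h changes by 0.08. Without replicate 1 at 0 h, 1 and 0 block pairs were called at 48 and 72 h, and without replicate 2 at 0 h, 5 and 4. At 72 h, 1 and 0 were called without replicate 1 or 2 at 72 h.

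Between 48 and 72 h no class passed in any of the 3 captures, and limma called 0% of the region pairs and 0% of the block pairs. Member block pairs at an unadjusted p under 0.05 numbered 5 for Emu, 1 for hs4 and 7 for IgG1. The nearest was the value within the stretch from IgG1, 7.92 ± 0.62% at 48 h and 6.204 ± 0.34% at 72 h (SD, n = 3 each; log2 -0.35, SE 0.09, limma adjusted p = 0.0931), which did not overlap. With the clones kept apart and clone as a term it was called (log2 -0.36, limma adjusted p = 0.00765), with pairs 0 or 1 kb apart left out (log2 -0.70, limma adjusted p = 0.0133), and without replicate 1 at 48 h (log2 -0.42, limma adjusted p = 0.0442).

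The captures thus gave different changes for the same bin pairs, and that difference was tested itself. The test treats samples of different captures as independent, and whether same-numbered ones share material is not stated. It holds the activation series alone, without the Emu libraries of the TPL series, also from 72 h of activation. From 0 to 72 h, the change within the stretch was lower by 1.96 on the log2 scale from IgG1 than from hs4 (log2 -1.96, SE 0.28, limma adjusted p = 2.79e-05), and lower from Emu than from hs4 (log2 -1.34, SE 0.28, limma adjusted p = 0.00248). Across the edge these differences were -1.83 (SE 0.44, limma adjusted p = 0.00225) and -2.38 (SE 0.44, limma adjusted p = 0.00125). Of the 28 region pairs, 35.7% and 25% were called. IgG1 and Emu were not called as different in their changes, at -0.62 within the stretch (SE 0.28, limma adjusted p = 0.133) and 0.55 across the edge (SE 0.44, limma adjusted p = 0.366), where 21.4% of region pairs were. On recovered contacts the first of these was called (log2 -1.05, limma adjusted p = 0.00127) and the second was -0.08.

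At 72 h of the activation series the order of the captures was therefore another than at 0 h. Within the stretch, hs4 held 9.36 ± 0.61%, IgG1 6.204 ± 0.34% and Emu 5.89 ± 0.50% (SD, n = 3 each). The neighbours IgG1 and Emu were not called as different (log2 0.08, SE 0.18, limma adjusted p = 0.685), while IgG1 and Emu each differed from hs4 (log2 -0.59 and -0.67, SE 0.18, limma adjusted p = 0.00723 and 0.00297). Across the edge, hs4 held 2.96 ± 0.43%, IgG1 1.09 ± 0.08% and Emu 0.664 ± 0.062%, and limma called each pair (log2 -1.43 for IgG1 against hs4, -2.12 for Emu against hs4 and 0.70 for IgG1 against Emu, SE 0.28, adjusted p = 0.000172, 3.24e-06 and 0.0411). Of the 28 region pairs, 64.3%, 82.1% and 60.7% were called. The last of these calls was lost with any 1 of the 6 samples left out (log2 0.63 to 0.76). With pairs 0 or 1 kb apart left out, IgG1 was lower than Emu within the stretch (log2 -0.69, limma adjusted p = 0.042), and Emu and hs4 were not called as different there (log2 -0.27, limma adjusted p = 0.388). The TPL series was not part of these fits. Its Emu libraries without TPL, also from 72 h, held 1.89%, 3.89% and 4.02% across the edge and 11.02%, 5.09% and 5.61% within the stretch. The difference between series was not tested.

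How much of the value around the edge crossed it was taken as the share of pairs across the edge among all pairs with both ends in the stretch or the IgG2a region. From Emu it was 20.8% and 10.7% at 0 h, 6.65%, 3.92% and 3.68% at 48 h, and 5.06%, 5.002% and 6.33% at 72 h. From IgG1 it was 13.05% and 11.01%, then 9.49%, 6.58% and 8.11%, then 9.54%, 9.02% and 8.37%. In both captures the resting samples were above all activated ones of the activation series. Emu libraries without TPL, a separate series also from 72 h of activation, had shares of 9.835%, 17.7% and 22.5%, which overlap 0 h. The difference between series was not tested. From hs4 the share was 17.1% and 11.9% at 0 h, 10.0%, 8.98% and 9.03% at 48 h, and 13.6%, 16.1% and 11.7% at 72 h, which overlaps 0 h. Against the resting samples, exact two-sided permutation gave p = 0.1 for the 5 comparisons without overlap, the smallest that 2 samples against 3 allow, and p = 0.7 for hs4 at 72 h (adjusted over 15 comparisons, exact p = 0.188 and 0.7). From IgG1 both the pairs across the edge and those within the IgG2a region fell, the latter from 9.64 ± 0.30% (SD, n = 2) to 4.801 ± 0.13% at 72 h (n = 3; log2 -1.0035, SE 0.08, limma adjusted p = 4.42e-05).

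The partners of the stretch over the whole map were described without a test. Of all value with an end in the stretch, the part that stayed inside went from 49.1 ± 6.6% (SD, n = 2 libraries) to 60.5 ± 3.1% (n = 3) from Emu between 0 and 72 h, and from 33.1 ± 11.4% to 43.8 ± 0.9% from hs4. From IgG1 it was 49.02 ± 3.4% (n = 4 libraries) and 50.9 ± 7.2% (n = 6). The part that went to the IgG2a region was 17.8 ± 4.1% and 6.85 ± 0.70% from Emu, 15.6 ± 3.2% and 13.8 ± 1.1% from hs4, and 12.1 ± 1.5% and 8.79 ± 2.05% from IgG1. From IgG1 the part that went to the 35 kb before the IgG2a region, where the hs4 viewpoint lies, was 3.82 ± 1.27% at 0 h and 7.93 ± 1.27% at 72 h, and the part that went to the last region, where the Emu viewpoint lies, was 5.47 ± 0.76% and 8.68 ± 1.86%. The value joining the stretch to the region with hs4 was 0.938% of the map at 0 h and 0.972% at 72 h (log2 0.05, SE 0.18, limma adjusted p = 0.8).

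**Figure D5:**
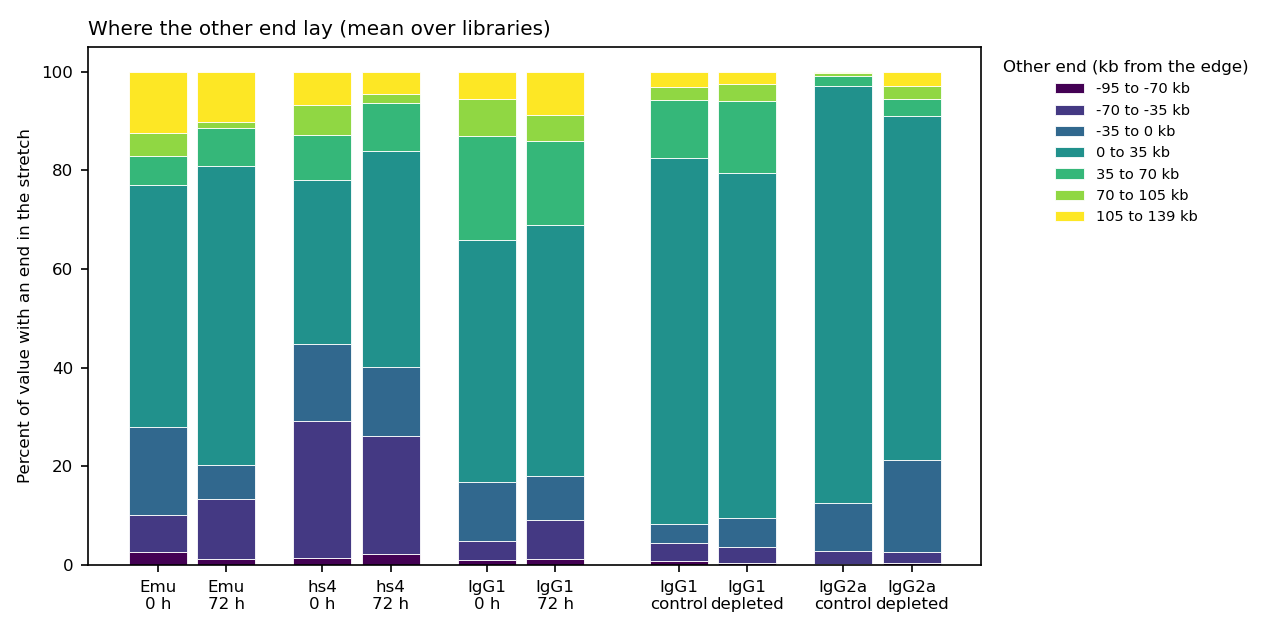
Of all value with an end in the stretch, the percent whose other end lay in each region of the map (colours, kb from the edge), as means over libraries for the activation series at 0 and 72 h and for the Spt5 series. The part that went to the IgG2a region (-35 to 0 kb) was 17.8% at 0 h and 6.85% at 72 h from Emu, and 9.79% in controls and 18.7% in depleted cells from IgG2a.

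Cells depleted of Spt5 held higher values than controls in the view from IgG1. Controls are labelled WT and their activation time is not in the labels, so depletion cannot be told apart from genotype or activation time. Within the stretch, controls held 8.89% and 11.8% in clone 1 and 9.62% and 10.1% in clone 2, and depleted cells 14.9% and 13.1% in clone 1 and 13.7%, 13.8% and 14.2% in clone 2. All 5 depleted libraries were above all 4 controls. With clone as a term, the log2 change was 0.47 (SE 0.13, limma adjusted p = 0.0299). Across the edge, controls held 0.549% and 0.673% in clone 1 and 0.356% and 0.517% in clone 2, and depleted cells 0.601% and 1.24% in clone 1 and 1.29%, 1.28% and 1.37% in clone 2 (log2 1.09, SE 0.29, limma adjusted p = 0.0299). Of the 28 region pairs 32.1% were called, 21.4% higher. Here 1 depleted library, clone 1 replicate 3, lay among the controls and the other 4 lay above them. Exact two-sided permutation within clones gave p = 0.0167, the smallest that the 60 arrangements allow, and 0.0333 (adjusted over 15 comparisons, exact p = 0.15 and 0.167).

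These calls were close to the threshold. The labels do not say whether the clones were separate cultures. With libraries of one number averaged over clones, the change within the stretch was 0.42 and no longer called (limma adjusted p = 0.0623), and that across the edge was 1.12 (limma adjusted p = 0.00998). With libraries kept apart, each was lost with any of 7 of the 9 libraries left out. They are replicate 1 of clone 1 and replicates 1 and 2 of clone 2 among controls, and replicate 4 of clone 1 and replicates 1, 2 and 3 of clone 2 among depleted cells. The changes then ran from 0.41 to 0.51 within the stretch and from 0.85 to 1.14 across the edge (limma adjusted p from 0.0517 to 0.116). Under median of ratios scaling, which moved the changes by -0.28, the change within the stretch was 0.19 (limma adjusted p = 0.534). Depth differed between clones, at 57673 to 89790 contacts for depleted clone 2 and 30518 to 33816 for depleted clone 1, and its part in the result was not tested.

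From IgG1, 9 of 25 block pairs across the edge and 14 of 15 within the stretch passed the filter. Their median change with depletion was 0.76 across the edge and 0.61 within the stretch. Over all block pairs tested it was 0.31, and the difference was not tested. The filter takes the mean over all libraries, so a pair low in controls can pass through the depleted ones. This can raise such medians, most across the edge, where few pairs passed. Of 23 IgG1 block pairs that passed the filter in the Spt5 series, 3 were called higher, all on the diagonal within the stretch. Of all block pairs tested, 6.19% were called, 3.1% higher. Pairs within 7-14 kb past the edge held 0.984% and 1.47% in clone 1 and 1.21% and 1.15% in clone 2 of the controls, and 1.76%, 1.88%, 1.75%, 1.86% and 1.71% in the depleted libraries (log2 0.59, SE 0.14, limma adjusted p = 0.0137). Pairs within 28-35 kb past the edge, the block nearest IgG1, held 2.95% to 3.59% in controls and 3.62% to 4.41% in depleted cells (log2 0.35, SE 0.09, limma adjusted p = 0.026). The third was the block 14-21 kb past the edge, where the groups overlapped (log2 0.60, SE 0.16, limma adjusted p = 0.026). Without 1 library, 0 to 5 were called. None were left without replicate 1 or 2 of clone 2 among controls.

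From IgG2a the values within the stretch were the highest of any capture. Depletion went with higher values across the edge, as over much of the map. Within the stretch, controls held 21.4% and 17.9%, and depleted cells 18.5%, 17.2% and 16.9%, which overlap (log2 -0.16, SE 0.17, limma adjusted p = 0.462). Across the edge, controls held 2.97% and 1.68%, and depleted cells 4.75%, 4.61% and 4.75%. The depleted libraries lay above both controls, and the change did not pass (log2 1.07, SE 0.29, limma adjusted p = 0.0649), where 21.4% of the 28 region pairs did. On recovered contacts it passed (log2 1.18, limma adjusted p = 0.0185). The size rested on the controls, at 1.48 without replicate 1 and 0.66 without replicate 2 (limma adjusted p = 0.0113 and 0.0395). These fits keep 1 control, assumed to vary like the 3 depleted libraries, which alone supply the spread. Controls had 639 to 860 non-empty bin pairs in the whole map and depleted libraries 1547 to 1643. The part of that difference in the result was not tested.

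Over the IgG2a block pairs that passed, the median change with depletion was 1.08 across the edge and -0.07 within the stretch. Over all block pairs tested it was 0.93. Whether the rise across the edge exceeded that over the map was not tested. Of the 36 that passed, 1 was called higher, where 3.61% of all block pairs tested were called, 2.58% higher. Blocks 7-0 kb before and 28-35 kb past the edge held 0.0547% and 0% in controls and 0.273%, 0.0961% and 0.304% in depleted cells (log2 2.67, SE 0.83, limma adjusted p = 0.0462). The control mean of that pair, 0.02735%, was below the filter, so it passed through the depleted libraries. That call was lost without replicate 2 of the controls and without any of the 3 depleted libraries, and without replicate 1 of the controls 4 were called. The share that crossed the edge was 4.11% and 2.39% in controls and 7.30%, 7.15% and 7.39% in depleted cells of the IgG2a capture, and from IgG1 2.09% to 3.404% and 2.34% to 5.57% (exact two-sided permutation p = 0.1 and 0.0667). The difference between depleted cells and controls within the stretch was not the same in the 2 captures (log2 difference 0.64, IgG1 minus IgG2a, SE 0.19, limma adjusted p = 0.0429, with 21.4% of region pairs called). That call was lost in 12 of 14 fits with 1 library left out (log2 0.51 to 0.76 over all 14). Across the edge the difference between captures was 0.02 (SE 0.47, limma adjusted p = 0.972).

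In controls, the IgG2a capture held more than the IgG1 capture in both classes. The log2 difference, IgG1 minus IgG2a, was -0.95 within the stretch (SE 0.16, limma adjusted p = 0.000321) and -2.14 across the edge (SE 0.38, limma adjusted p = 0.00048), where 71.4% of region pairs were called. The first was not called with pairs 0 or 1 kb apart left out (log2 -0.60, limma adjusted p = 0.111). The balance between the sides was 2.38 ± 0.52 from IgG2a (SD, n = 2) and -1.64 ± 0.35 from IgG1 (n = 4).

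TPL treatment gave no call for either class from Emu. Across the edge, values were 1.89%, 3.89% and 4.02% without TPL, 1.68%, 0.244% and 0.704% after 1 h, and 3.18%, 0.474% and 0.985% after 3 h. All libraries after 1 h were below all without TPL (log2 -2.19, SE 0.86, limma adjusted p = 0.249), and those after 3 h overlapped them (log2 -1.42, SE 0.86, limma adjusted p = 0.319). Within the stretch, values were 11.02%, 5.09% and 5.61% without TPL, 3.43%, 13.6% and 4.12% after 1 h, and 6.15%, 5.06% and 4.40% after 3 h (log2 -0.24 and -0.40, SE 0.56, limma adjusted p = 0.795 and 0.604). Limma called 0% of the 28 region pairs in all 3 TPL comparisons, and 0 of 19 member block pairs, where 2.1% of all 238 were called at 1 h and 0% at 3 h. At an unadjusted p under 0.05 there were 1 and 0 members. Both comparisons share the libraries without TPL.

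The values across the edge in this series came from 3 to 23 bin pairs a library, with as few as 16 recovered contacts. A single bin pair held 80.8% of it in 1 library without TPL and 89.1% in 1 library after 3 h. The activation series holds Emu libraries that are also from 72 h of activation, with 0.603% to 0.727% across the edge beside 1.89% to 4.02% without TPL. These are separate series, and the difference was not tested. Between 3 h and 1 h the log2 differences were -0.16 within the stretch and 0.77 across the edge (SE 0.56 and 0.86, limma adjusted p = 0.996 and 0.837).

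In the LPS series, seen from IgG3, pairs across the edge held 1.17%, 1.59% and 2.15% at day 0 and 0.777%, 0.819% and 1.08% at day 3. The groups did not overlap, and the change did not pass (log2 -0.84, SE 0.27, limma adjusted p = 0.227), nor did any of the 28 region pairs (0%). Within the stretch they held 6.89%, 8.28% and 7.66%, then 6.48%, 7.49% and 6.41%, which overlap (log2 -0.16, SE 0.14, limma adjusted p = 0.47). Of 26 block pairs that passed the filter 1 was called, and it was the only call among all 316 (0.316%). Blocks 21-14 kb before and 0-7 kb past the edge held 0.0895%, 0.169% and 0.860% at day 0 and 0.00687%, 0.00536% and 0% at day 3 (log2 -3.65, SE 0.84, limma adjusted p = 0.00825). The day 3 mean of that pair, 0.00408%, was below the filter, so it passed through day 0. The call was lost without replicate 3 at day 0.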

How the data were processed

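The libraries came from mouse primary B cells and 5 capture probes. Per the labels' protocols, chromatin was crosslinked with formaldehyde and cut with NlaIII, and libraries were hybridized to the probe in a pair of rounds. The authors used Bowtie2 and mm9, per the submitters' processing notes. For the Bowtie2 version, contact caller and duplicates, the sources used here give nothing. Each deposited matrix holds a signal per pair of 1 kb bins, scaled by the authors to a sum of 300000.

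Values were summed over the pairs of 7 regions (28 region pairs, mostly of 35 kb) and of 7 kb blocks. Features with a mean of at least 100 of 300000 entered limma 3.58.1 (R 4.3.3) as log2(value + 50), which understates the change of low values, with Benjamini-Hochberg adjustment over all region pairs or all block pairs and a threshold of 0.05. All samples of a series and capture shared 1 fit, with a trended prior variance for block pairs. Clone was a term for IgG1 in the Spt5 series. Captures were compared in joint fits. A fit that kept 1 sample of a group assumed that it varied like the other groups. Whole contacts were recovered from the values by fitting a whole-number divisor to each bin and served as depth and as an alternative, since this division was inferred. The scripts were tested on simulated data with Python 3.11.15. The regions, classes and lists were chosen with earlier results of these data known. Named block pairs are, for each comparison, up to 3 called with the largest change each way and 1 direction in all samples, and named bins are the 3 with the most ends in a capture. Same-numbered samples were checked for pairing within each capture and were not paired. Pairing between captures was not checked, and the joint fits treat their samples as independent. The closing section gives the effect of other scalings, pseudocounts, filters, block sizes and narrower regions, of leaving out pairs, viewpoint bins or samples, and of recovered contacts and counts of non-empty pairs, which with all alternatives for the captures were chosen after seeing the data.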

Additional observations from a re-analysis of the deposited data

Results flagged for a closer look

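The depleted library of clone 1 replicate 3 in the IgG1 capture of the Spt5 series stood apart from the other 4 depleted libraries, at 0.601% between the stretch and the IgG2a region and 2.34% of the value around the edge crossing it. The gap to the nearest library took up most of the group's range. By the critical value used, chance gives such a gap in about 1 of 20 groups, and this group of 5 holds both clones. Several measures were screened in this way, so that rate holds for each and not for all together. The measures given here are linked, since the share has the value across the edge in it. Without this library the change across the edge was 1.37.

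In the activation series, the change from 0 to 72 h differed between captures by a test of the difference itself. Within the stretch it was -1.96 for IgG1 minus hs4 and -1.34 for Emu minus hs4 on the log2 scale, and across the edge -1.83 and -2.38. The change with Spt5 depletion within the stretch differed by 0.64 for IgG1 minus IgG2a.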

How the results depend on the processing

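Values are log2 changes, except shares crossing the edge, in percentage points, and numbers of block pairs. Besides leaving out samples, 409 combinations of a result and a setting counted as unchanged, and the others are given here. For a log2 change, unchanged means the same direction and side of the threshold. For numbers of block pairs a limited change was allowed, and for shares and side balances only the direction was compared. Where 1 sample was left out, 480 such combinations were unchanged and 110 were not. For these changes the cause was not tested. Same-numbered samples deviated together (r over 0.1) in 2 of 2 pairs of the IgG2a capture and in 2 of 7 of the IgG1 capture in the activation series, and in 0 pairs of the others. No label gives a shared source and 2 pairs are too few to show one, so the numbers were not used to pair samples. Scaling by the median of ratios moved all changes by 0.27 (Emu 48 h), 0.20 (hs4 48 h), 0.41 and 0.31 (IgG1 48 and 72 h), -0.28 and -0.23 (Spt5, IgG1 and IgG2a), -0.21 and -0.13 (72 against 48 h, Emu and hs4), and -0.15 and -0.13 (3 h TPL against none and against 1 h). Depth limits the values across the edge most, with as few as 3 non-empty bin pairs a library. With median of ratios scaling, calls lost were Emu 48 h within the stretch (-0.42), IgG1 48 h within the stretch (-0.18), IgG1 Spt5 within the stretch (0.19). Calls gained were hs4 72 h within the stretch (1.09). Signs turned for hs4 48 h across the edge (0.13). Block pairs called numbered 0 for Emu 48 h, 3 for IgG1 48 h, 0 for IgG1 Spt5, 0 for IgG2a Spt5. With a pseudocount of 200, calls gained were IgG2a Spt5 across the edge (1.05). Of block pairs, those called numbered 1 for Emu 48 h, 0 for IgG2a Spt5, 0 for LPS. With no filter, member block pairs called numbered 0 for Emu 48 h, 11 for IgG1 48 h, 1 for IgG1 Spt5, 0 for IgG2a Spt5, 0 for LPS. With pairs 0 or 1 kb apart left out, calls lost were Emu 48 h within the stretch (-1.35), IgG1 Spt5 within the stretch (0.41), IgG1 against Emu at 72 h across the edge (0.25), Emu against hs4 at 72 h within the stretch (-0.27), IgG1 against IgG2a in Spt5 controls within the stretch (-0.60), the change with Spt5 depletion, IgG1 against IgG2a within the stretch (0.43). Calls gained were hs4 72 h within the stretch (1.15), IgG1 72 against 48 h within the stretch (-0.70), Emu against hs4 at 0 h across the edge (0.77). Signs turned for hs4 48 h across the edge (0.31), 3 h TPL within the stretch (0.0901), 3 against 1 h TPL within the stretch (0.18), IgG1 against Emu at 0 h within the stretch (-0.033), IgG1 against Emu at 0 h across the edge (-0.15), IgG1 against Emu at 72 h within the stretch (-0.69), the share crossing the edge, Emu 72 against 48 h (-1.68), the share crossing the edge, hs4 72 h (0.33), the side balance, hs4 48 h (0.10), the side balance, IgG2a Spt5 (-0.10). The block pair calls numbered 0 for Emu 48 h, 1 for hs4 72 h, 2 for IgG1 48 h, 1 for IgG1 72 against 48 h, 0 for IgG1 Spt5, 0 for IgG2a Spt5. With bins near the viewpoint left out, calls lost were Emu 48 h within the stretch (-0.32). Member block pairs called numbered 1 for Emu 48 h, 6 for IgG1 Spt5, 0 for IgG2a Spt5. With a replicate block, calls lost were Emu 48 h within the stretch (-0.66), Emu 72 h across the edge (-1.86), IgG1 Spt5 within the stretch (0.43), IgG1 Spt5 across the edge (0.98). Block pairs called numbered 1 for Emu 48 h, 9 for IgG1 48 h, 0 for IgG1 Spt5, 0 for IgG2a Spt5, 0 for LPS. On recovered contacts, calls lost were Emu 48 h within the stretch (-0.16), IgG1 against Emu at 72 h across the edge (0.54). Calls gained were hs4 72 h within the stretch (1.29), IgG2a Spt5 across the edge (1.18), the change at 72 h, IgG1 against Emu within the stretch (-1.05). Signs turned for Emu 72 h within the stretch (0.10), Emu against hs4 at 0 h across the edge (-0.26), the change at 72 h, IgG1 against Emu across the edge (-0.083), the change with Spt5 depletion, IgG1 against IgG2a across the edge (-0.23). Of block pairs, those called numbered 27 for IgG1 48 h, 6 for IgG1 Spt5, 0 for LPS. On counts of non-empty pairs, calls lost were Emu 48 h within the stretch (-0.11), Emu 72 h across the edge (-0.63), IgG1 Spt5 within the stretch (0.14). Calls gained were hs4 72 h within the stretch (0.76). Signs turned for Emu 72 h within the stretch (0.10), hs4 48 h across the edge (0.13), hs4 72 against 48 h within the stretch (0.012), 3 against 1 h TPL within the stretch (0.085). The block pair calls numbered 1 for Emu 48 h, 1 for hs4 48 h, 4 for hs4 72 h, 6 for IgG1 48 h, 0 for IgG1 Spt5, 2 for IgG2a Spt5, 0 for LPS. With narrower regions, calls lost were Emu 48 h within the stretch (-0.88), Emu 72 h across the edge (-1.63), IgG1 Spt5 within the stretch (0.53), IgG1 Spt5 across the edge (0.99). Calls gained were hs4 72 h within the stretch (1.17). Signs turned for 1 h TPL within the stretch (0.23), 3 h TPL across the edge (0.15). With 5 kb blocks, member block pairs called numbered 0 for Emu 48 h, 0 for hs4 72 h, 1 for IgG1 72 against 48 h, 0 for IgG2a Spt5. In clone 1 alone, signs turned for IgG1 72 against 48 h across the edge (0.13). Member block pairs called numbered 7 for IgG1 48 h, 1 for IgG1 72 against 48 h. In clone 2 alone, member block pairs called numbered 3 for IgG1 48 h, 12 for IgG1 72 h. With clones apart and a clone term, calls gained were IgG1 72 against 48 h within the stretch (-0.36). With libraries of one number averaged, calls lost were IgG1 Spt5 within the stretch (0.42). Block pairs called numbered 0 for IgG1 Spt5. With no clone term, member block pairs called numbered 1 for IgG1 Spt5. With 1 sample left out in turn, some results changed call or sign in at least 1 fit. The ranges given for them span all such fits, those without a change included. They ran over -0.85 to 0.14 for 1 h TPL within the stretch, -0.54 to 0.45 for 3 against 1 h TPL within the stretch, -3.19 to -2.08 for Emu 48 h across the edge, -0.88 to -0.50 for Emu 48 h within the stretch, -2.53 to -1.42 for Emu 72 h across the edge, -0.30 to 0.81 for Emu against hs4 at 0 h across the edge, 0.23 to 1.11 for Emu against hs4 at 0 h within the stretch, -0.42 to -0.31 for IgG1 72 against 48 h within the stretch, 0.85 to 1.37 for IgG1 Spt5 across the edge. They also ran over 0.41 to 0.55 for IgG1 Spt5 within the stretch, -0.41 to 0.71 for IgG1 against Emu at 0 h across the edge, 0.51 to 0.89 for IgG1 against Emu at 0 h within the stretch, 0.63 to 0.76 for IgG1 against Emu at 72 h across the edge, 0.66 to 1.48 for IgG2a Spt5 across the edge, -0.92 to 8.41 for the share crossing the edge, 3 against 1 h TPL, -3.26 to 1.90 for the share crossing the edge, hs4 72 h, -0.013 to 1.10 for the change at 72 h, IgG1 against Emu across the edge, -0.39 to 0.42 for the change with Spt5 depletion, IgG1 against IgG2a across the edge. The remaining ones ran over 0.51 to 0.76 for the change with Spt5 depletion, IgG1 against IgG2a within the stretch, -0.19 to 0.052 for hs4 48 h across the edge, 0.77 to 1.65 for hs4 48 h within the stretch, 0.57 to 1.46 for hs4 72 h within the stretch, -0.66 to 1.05 for the side balance, 3 against 1 h TPL, -0.58 to 0.19 for the side balance, Emu 72 against 48 h, -0.14 to 0.20 for the side balance, IgG1 48 h, -0.32 to 0.0202 for the side balance, IgG1 72 h, -0.37 to 0.37 for the side balance, IgG2a Spt5, -0.20 to 0.052 for the side balance, hs4 48 h. Member block pairs called then ran over 0 to 1 for Emu 48 h, 0 to 1 for Emu 72 h, 2 to 12 for IgG1 48 h, 10 to 18 for IgG1 72 h, 0 to 5 for IgG1 Spt5, 0 to 4 for IgG2a Spt5, 0 to 1 for LPS, 1 to 5 for hs4 48 h, 0 to 4 for hs4 72 h.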
